A study of Rattus norvegicus with 20 samples.

Results

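The choroid plexus is the epithelial tissue of the brain ventricles that secretes cerebrospinal fluid (CSF), and besides the fluid it releases proteins into it. Here 5 abundant transcripts that encode such secreted proteins were followed, Clu, Cst3, Apoe, Ptgds and Enpp2, which are 5 of the 32883 genes measured in each library. They were taken by name, and their Ensembl identifiers were ENSRNOG00000016460 (Clu), ENSRNOG00000005195 (Cst3), ENSRNOG00000018454 (Apoe), ENSRNOG00000015550 (Ptgds) and ENSRNOG00000004089 (Enpp2). All 5 were above the filter on low values in every comparison.

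RNA of the choroid plexus of 20 female Zucker rats aged 16 weeks was sequenced, with 1 library for each rat and the lateral and 4th ventricle plexus of a rat pooled. The untreated experiment held 6 lean rats, which carried 1 copy of the fa allele (+/fa), and 6 obese rats, which carried 2 (fa/fa) and thereby lack a working leptin receptor in every tissue. The injected experiment held 4 lean rats given sesame oil alone under the skin 2 times a week for 4 weeks (lean control) and 4 obese rats given 1 mg testosterone propionate in the same oil on the same schedule (obese + TT). Only obese rats received testosterone, so in the injected rats the effects of obesity and of testosterone cannot be told apart. Between the untreated and the injected rats, the injections, the testosterone where given, and the experiment as a whole cannot be told apart either. The RNA came from whole plexus, so that fewer cells of a type and less RNA per cell cannot be told apart.

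These proteins have different tasks once they reach the CSF. Cystatin C, the product of Cst3, is an inhibitor of cysteine proteases such as the lysosomal cathepsins. Lipocalin-type prostaglandin D synthase, the product of Ptgds, converts prostaglandin H2 to prostaglandin D2 and also carries small lipophilic molecules. Clusterin, the product of Clu and also called apolipoprotein J, is an extracellular chaperone that keeps misfolded proteins in solution. Autotaxin, the product of Enpp2, is a secreted lysophospholipase D that produces the signalling lipid lysophosphatidic acid. Apolipoprotein E, the product of Apoe, carries cholesterol and other lipids between cells and is also made by macrophages and astrocytes.

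The sequence in front of the start of transcription is shown for Cst3 and for Ptgds, the next most abundant member. In TPM, the unit described below, Cst3 did not overlap between lean and obese rats and Ptgds did. Both are the 250 bases upstream of the start in RefSeq on the GRCr8 build, written 5′ to 3′ on the minus strand on which both genes lie, and GRCr8 is not the build the reads were mapped to. Capitals mark the GC box GGGCGG, searched on both strands, and AGAACA, the hexamer of the androgen response element, also searched on both strands. The Cst3 stretch lies at chr3:156793938-156794187 and the Ptgds stretch at chr3:28682979-28683228.
Cst3: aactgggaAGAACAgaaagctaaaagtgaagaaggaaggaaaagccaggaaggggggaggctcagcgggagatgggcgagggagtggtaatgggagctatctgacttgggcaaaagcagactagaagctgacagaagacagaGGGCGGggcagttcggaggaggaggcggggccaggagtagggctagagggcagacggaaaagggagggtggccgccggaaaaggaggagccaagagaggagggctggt
Ptgds: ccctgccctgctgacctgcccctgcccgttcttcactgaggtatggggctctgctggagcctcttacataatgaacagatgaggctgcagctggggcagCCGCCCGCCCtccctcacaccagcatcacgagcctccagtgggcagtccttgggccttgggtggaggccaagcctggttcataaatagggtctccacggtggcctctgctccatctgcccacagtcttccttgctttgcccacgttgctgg

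The Cst3 stretch held 1 GC box, starting 108 bases before the start, and 1 hexamer, starting 242 bases before it. The Ptgds stretch held 2 overlapping GC boxes, both on the opposite strand, and no hexamer. Apoe had 3 windows in RefSeq, of which 2 held 2 GC boxes each and none held a hexamer. These boxes started 41 and 21 bases before the start in 1 window and 220 and 200 bases before it in another. Whether they are the same boxes in overlapping windows was not checked. Neither the TATA box TATAAA, searched on the coding strand, nor the full androgen response element, an inverted pair of hexamers searched on both strands, was found in these 5 windows. For comparison, 30.5% of all 33469 windows of the same length held a GC box, 17.5% a hexamer, 8.06% a TATA box and 0.012% the full element. Such matches describe letters and are not binding sites. Promoter sequences of Clu and Enpp2 are not shown here.

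The levels are given in TPM, in which the reads of a gene are divided by its length and each library is scaled to a total of 1000000. This unit keeps no read depth, so no counting error can be given for a value. The 5 transcripts together took between 4.6 and 6.32% of all TPM of a library. Cst3 was the second most abundant of all genes in each of the 20 libraries, after Ttr (transthyretin, the thyroid hormone carrier of the CSF), which alone took 25.8 to 39.3%. Ptgds ranked between 8 and 17, Clu between 11 and 17 and Enpp2 between 12 and 18, whereas Apoe ranked between 243 and 1248. The 12 epithelial marker genes (among them Ttr, Folr1, Kcnj13, Clic6 and Aqp1) all had an identifier here and summed to 265304 to 397728 TPM. Nearly all of that sum was Ttr (257742 to 393331 TPM). Over the 20 libraries Folr1 averaged 1201 TPM, Clic6 954, Kcnj13 878 and Aqp1 695. Of the 12 macrophage markers 2 had an identifier (Cd74 and Lyz2) and of the 7 fibroblast markers 4 (Dcn, Col1a1, Mgp and Pdgfra). The astrocyte list had 2 of 7 (Gja1 and Glul) and the red blood cell list 3 of 5, while none of the 7 endothelial, 6 oligodendrocyte and 5 neuron markers could be matched, so those cells were not analysed here.

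The spread within a group was given by the coefficient of variation (SD over mean). It was 3.28 to 7.71% for Clu, 2.59 to 6.17% for Cst3, 5.44 to 8.76% for Enpp2 and 5.18 to 11.4% for Ptgds. For Apoe it was 8.15% in lean, 23.6% in obese, 9.31% in lean control and 22.1% in obese + TT rats, the highest of the members in all groups but lean, where Enpp2 had 8.76%.

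**Figure D1:**
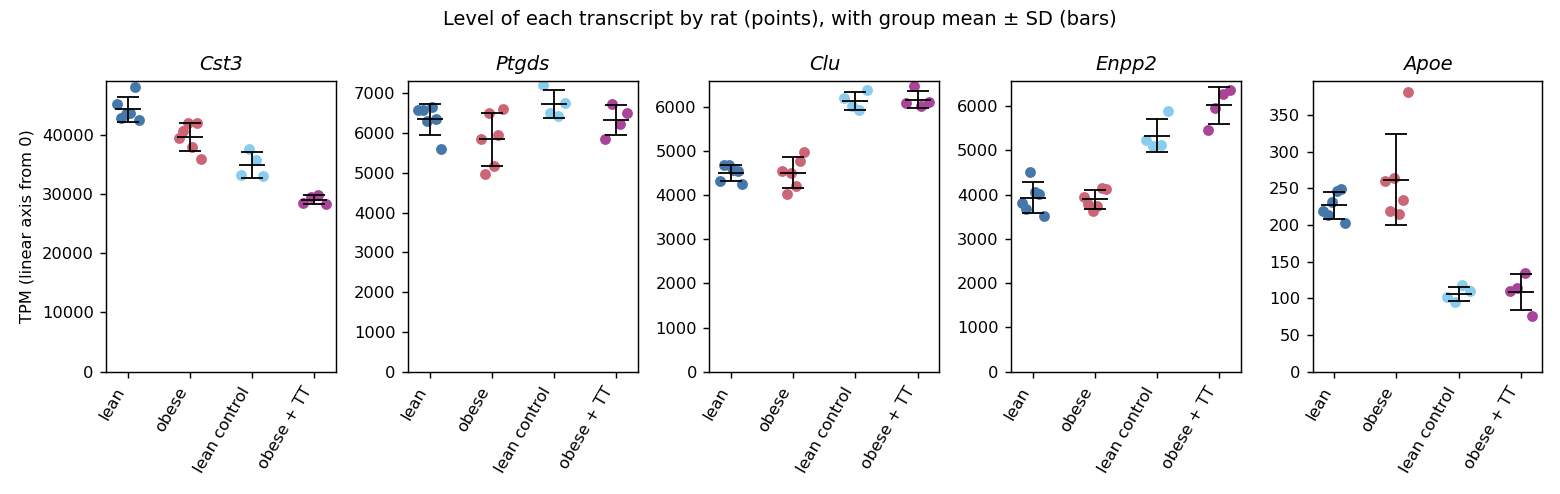
TPM of Cst3, Ptgds, Clu, Enpp2 and Apoe (one panel each, linear axes from 0) in the 6 lean, 6 obese, 4 lean control and 4 obese + TT rats. Points are rats and bars the group mean ± SD. Cst3 steps down from lean to obese and from lean control to obese + TT without overlap, and 1 obese rat stands at 381 TPM of Apoe.

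Cst3, the cysteine protease inhibitor, was the member in which lean and obese rats were separated in TPM, in both experiments. The lean rats (1 to 6) had between 42426 and 48046 TPM with a median of 43608, and the obese rats (7 to 12) between 35881 and 41963 TPM with a median of 40005. Every obese rat was thus below every lean rat in TPM. With FPKM, the other deposited unit, the groups overlapped. There obese rats 8 (48302) and 9 (50226) lay above the lowest lean rat (48280). The means were 44276 ± 2092 (SD, n = 6) in lean and 39622 ± 2399 (SD, n = 6) in obese rats, a difference of -10.5%.
In the injected experiment, the lean control rats had 33204, 37532, 35770 and 33074 TPM (rats 13 to 16), and the obese + TT rats 28501, 29468, 29870 and 28311 TPM (rats 17 to 20). Again each obese + TT rat was below each lean control rat, and with FPKM too (26878 to 28710 against 30460 to 37350). Their means were 34895 ± 2152 and 29038 ± 751 TPM (SD, n = 4 each), a difference of -16.8%.
The red blood cell markers, the globin genes Hba-a1, Hba-a2 and Hbb, lay in the opposite direction in both experiments. They summed to 3104 to 5471 TPM in lean and 4051 to 7019 TPM in obese rats, and to 2168 to 5767 TPM in lean control and 4799 to 8387 TPM in obese + TT rats. The groups overlapped, and the 3 genes had median log2 fold changes of 0.41 and 1.12, and none of them passed (smallest adjusted p = 0.312 and 0.473). Within the obese group, rat 12 had both the lowest globin sum (4051 TPM) and the lowest Cst3 (35881 TPM). The part of these markers in the Cst3 values was not tested.

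Neither difference passed the test across all genes. The log2 fold change of Cst3 on the log2(TPM + 0.1) scale was -0.16 ± 0.07 (SE) in obese against lean rats, with an adjusted p = 0.46 (limma, Benjamini-Hochberg over 15176 genes). For the injected rats it was -0.26 ± 0.16 (SE) in obese + TT against lean control rats, with an adjusted p = 0.75 over 15259 genes. These SEs are moderated towards the variance of genes of similar level, so they are not the spread of these rats alone. In the injected rats the adjusted p of limma was 0.632 without the trend with level and 0.32 with the robust option. In the untreated rats it was 0.447 and 0.306. The exact two-sided permutation test of Cst3 alone, on TPM, gave p = 0.00216 for 6 against 6 rats and p = 0.0286 for 4 against 4. These are the smallest values these designs allow and are not adjusted for the number of genes. In TPM, genes lower in each obese rat than in each lean rat made up 0.244% of those tested (37 genes), and those lower in each obese + TT rat than in each lean control rat 1.66% (253 genes). These comparisons share no rats. In both, 3 of 14521 genes were lower without overlap (0.0207%), namely Cst3, Cacna2d2 and a gene with no symbol at hand, ENSRNOG00000001173, and the other two had means of 7.18 and 12.1 TPM against 37956 TPM for Cst3.

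In one fit of all 20 rats, the mean of both differences of Cst3 was -0.21 ± 0.06 (SE) on the log2 scale, with an adjusted p = 0.255, in a test added after the data were seen in which 12 of 15406 genes (0.0779%) passed and none of the members. Without lean control rat 13, 66 genes passed that test, and without lean control rat 15 or 16 it was 5. The difference between both, -0.10 with a 95% interval from -0.35 to 0.15, did not pass either (adjusted p = 0.861). With all 4 other scalings and with any single rat left out, Cst3 was lower in obese rats, with log2 fold changes of -0.18 to -0.13 when 1 rat was left out of the untreated comparison and of -0.29 to -0.23 in the injected one. Of the 76 genes averaging 1000 TPM or more, 4 had a lower fold change than Cst3 in each comparison.

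The other members did not separate lean from obese rats. Of the 5 members, 0 passed the test in obese against lean rats, where 0 of all genes did (0%, smallest adjusted p = 0.0863) and 1466 had an unadjusted p under 0.05. In obese + TT against lean control rats, 0 members and 0 genes passed as well (0%, smallest adjusted p = 0.127), with 1134 genes at an unadjusted p under 0.05. The paper reported differentially expressed genes in both comparisons, with DESeq2 on read counts. The counts of 0 here hold for limma on TPM and do not mean that no gene differs. The test of the difference between these comparisons passed in 0 members and 0 genes (0%), with 1288 genes at an unadjusted p under 0.05. Without lean control rat 13, 25 genes passed in obese + TT against lean control rats and 14 in the test of the difference, again with no member among them.

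Clu, the chaperone, was closest to equal. The lean rats had between 4260 and 4682 TPM (median 4565) and the obese rats between 4037 and 4982 TPM (median 4518). The obese rats enclosed the lean rats on both sides, with means of 4510 ± 183 and 4506 ± 347 TPM (SD, n = 6 each). The fold of obese over lean rats was 0.997 with a 95% interval from 0.913 to 1.09. In the injected rats Clu was 6204, 6011, 5936 and 6385 TPM in lean control and 6081, 6463, 6013 and 6104 TPM in obese + TT rats. These overlapped as well, and the fold of obese + TT over lean control was 1.01 (95% interval 0.879 to 1.15).

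Enpp2, which makes lysophosphatidic acid, had between 3525 and 4498 TPM (median 3908) in the lean and between 3628 and 4150 TPM (median 3861) in the obese rats. The ranges overlapped and the fold was 0.992 (95% interval 0.901 to 1.09). In the injected rats it was 5222, 5085, 5111 and 5882 TPM in lean control and 5455, 5963, 6264 and 6359 TPM in obese + TT rats, where lean control rat 16 alone lay within the obese + TT range. The log2 fold change there was 0.17 ± 0.10 (SE) with an adjusted p = 0.736, and the exact permutation test gave p = 0.0571. The difference of the Enpp2 effect between the experiments was 0.19 on the log2 scale (95% interval -0.03 to 0.40, adjusted p = 0.664).

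Ptgds, the prostaglandin D synthase, had between 5604 and 6648 TPM (median 6459) in the lean and between 4983 and 6614 TPM (median 5911) in the obese rats. The log2 fold change was -0.12 ± 0.08 (SE, adjusted p = 0.663), with obese rats 8 and 10 below all lean rats and the others within the lean range. In the injected rats it was 7199, 6511, 6422 and 6763 TPM in lean control and 5854, 6725, 6235 and 6507 TPM in obese + TT rats, with a log2 fold change of -0.09 ± 0.09 (SE, adjusted p = 0.865).

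Apoe, the lipid carrier, had between 202 and 249 TPM (median 225) in the lean and between 215 and 381 TPM (median 247) in the obese rats. The log2 fold change of 0.18 ± 0.12 (SE, adjusted p = 0.667) leaned on obese rat 12 and was 0.07 without it (adjusted p = 0.849). That rat also had the highest summed fibroblast markers of its group, 1062 TPM in a range from 593 to 1062, the highest astrocyte markers, 155 TPM in a range from 115 to 155, and 534 TPM of macrophage markers in a range from 446 to 546. Its red blood cell markers were the lowest of the group, 4051 TPM in a range from 4051 to 7019. The part of these cells in the value was not tested. In the injected rats Apoe was 102, 94.9, 118 and 110 TPM in lean control and 111, 114, 135 and 76.7 TPM in obese + TT rats. There the obese + TT rats enclosed the lean control rats on both sides, with a log2 fold change of 0.01 ± 0.15 (SE, adjusted p = 0.99).

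**Figure D2:**
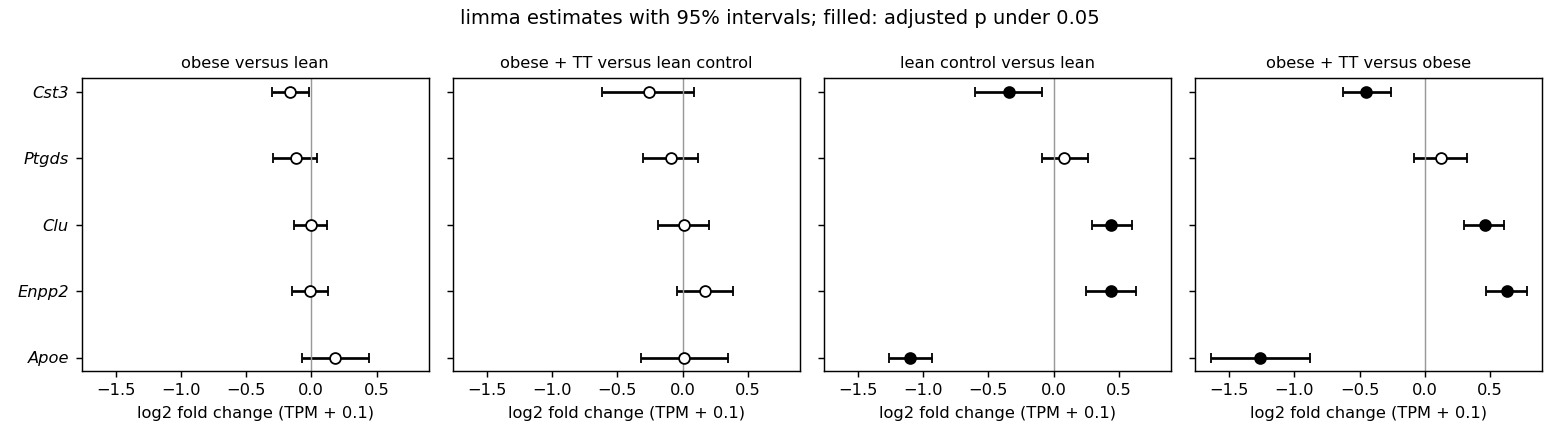
Log2 fold change of each member on the log2(TPM + 0.1) scale (x axis) with its 95% interval from limma, in the 4 comparisons. Filled points have an adjusted p under 0.05, and they are seen for Cst3, Clu, Enpp2 and Apoe in both comparisons of injected with untreated rats and for no member between lean and obese rats.

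Injected and untreated rats, which are the same 20 rats compared the other way, differed in far more genes. Clu and Enpp2 were higher, and Cst3 and Apoe lower, in the injected rats of either body type, while Ptgds did not pass the test. That is 4 of 5 members in lean control against lean rats, in a comparison in which 58.2% of 15326 genes passed (41.7% higher and 16.5% lower), and 4 of 5 in obese + TT against obese rats, where 58.1% of 15389 genes passed (41.7% higher and 16.4% lower). The groups did not overlap for the same 4 members, as for 44.8% and 45.8% of all genes. Since most genes passed, the count of members is no result about them, and the size and direction of each are described.

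The scale has to be set out first, since the values of all genes shifted between the experiments. The median log2 fold change of all genes was 0.24 in lean control against lean rats and 0.25 in obese + TT against obese rats. Ttr, the most abundant transcript, was lower in every injected rat (257742 to 305446 TPM) than in every untreated one (311516 to 393331 TPM). In limma Ttr did not pass in the lean rats (-0.23 ± 0.21 SE, adjusted p = 0.378) and passed in the obese rats (-0.35 ± 0.13 SE, adjusted p = 0.0417). With the deposited FPKM, the other length-normalised unit, which are the TPM times 1.11 to 1.22 in the untreated and 0.921 to 0.995 in the injected libraries, the median gene moved by -0.00 and -0.02. The share of passing genes that were higher was 71.6% with TPM and 49.9% with FPKM in the lean rats, and 71.8% and 48.5% in the obese rats. A change of a member is therefore also given relative to the median gene.

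Apoe changed most. It fell from 227 ± 18.5 TPM (SD, n = 6) in lean to 106 ± 9.9 TPM (SD, n = 4) in lean control rats, a log2 fold change of -1.10 ± 0.08 (SE, adjusted p = 3.14e-07), and was -1.34 relative to the median gene. Among obese animals the level fell from 262 ± 61.8 to 109 ± 24.1 TPM (SD, n = 6 and 4), a log2 fold change of -1.26 ± 0.17 (SE, adjusted p = 6.92e-05), or -1.51 relative to the median gene. The lowest untreated rat had 202 TPM and the highest injected rat 135 TPM. Some markers of other cell types were lower in the injected rats too, and others were not. Summed fibroblast markers were 593 to 1062 TPM in the untreated and 79.3 to 122 TPM in the injected rats. Mgp (matrix Gla protein), Dcn (decorin) and Col1a1 were lower in the injected than in the untreated rats, whereas Pdgfra was higher. Summed macrophage markers (Cd74 and Lyz2) were 415 to 546 TPM in the untreated and 95.2 to 284 TPM in the injected rats. The astrocyte markers summed to 115 to 155 TPM in the untreated and 121 to 148 TPM in the injected rats, nearly all of it Glul (130 TPM over all libraries). Gja1 (4.79 TPM) was lower in the injected rats. None of the 3 globin genes passed with TPM, with a median of -0.53 in the lean and 0.20 in the obese rats. With FPKM 2 of them were lower in the lean rats. Of the 12 epithelial markers, 8 were called higher and 1 lower in the lean rats, and 7 and 2 in the obese rats. With FPKM these were 7 and 2, and 6 and 2. The part of these cells in the results of Apoe and of the other members was not tested.

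Cst3 fell by 0.34 on the log2 scale in lean control against lean rats (SE 0.12, adjusted p = 0.023) and by 0.45 in obese + TT against obese rats (SE 0.08, adjusted p = 0.000699), which is -0.59 and -0.69 relative to the median gene. The lean control rats (33074 to 37532 TPM) all lay below the lean rats (42426 to 48046 TPM), and the obese + TT rats (28311 to 29870 TPM) below the obese rats (35881 to 41963 TPM). In the lean rats the call was lost without lean rat 3, 4 or 5 or lean control rat 16 (adjusted p = 0.0508 to 0.0628) and without the filter on low values (adjusted p = 0.366), and in the obese rats without that filter (adjusted p = 0.0685), while the fold change itself moved little.

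Clu rose from 4510 ± 183 to 6134 ± 202 TPM in lean rats, by 0.44 ± 0.07 (SE) on the log2 scale (adjusted p = 0.000154), and from 4506 ± 347 to 6165 ± 202 TPM in obese rats, by 0.46 ± 0.07 (SE, adjusted p = 0.000189). The injected rats (5936 to 6463 TPM) lay above all untreated rats (4037 to 4982 TPM). Relative to the median gene the rise was 0.20 and 0.21. With FPKM it was 0.18 in both and still passed.

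Enpp2 rose from 3931 ± 344 to 5325 ± 376 TPM in lean rats, by 0.44 ± 0.09 (SE) on the log2 scale (adjusted p = 0.000847), and from 3894 ± 212 to 6010 ± 407 TPM in obese rats, by 0.63 ± 0.07 (SE, adjusted p = 1.63e-05). Relative to the median gene these were 0.20 and 0.38. With FPKM the rise in lean rats was 0.18 and missed the threshold (adjusted p = 0.0501), while that in obese rats was 0.35 and passed.

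Ptgds was the member whose difference did not pass. It was 6344 ± 388 TPM in lean and 6724 ± 348 TPM in lean control rats, with a log2 fold change of 0.08 ± 0.08 (SE, adjusted p = 0.392), and 5849 ± 669 TPM in obese and 6330 ± 375 TPM in obese + TT rats, with a log2 fold change of 0.12 ± 0.09 (SE, adjusted p = 0.284). Its sign depends on the scale, since it was -0.18 and -0.16 with FPKM. The 95% interval of the fold in TPM was 0.939 to 1.2 in the lean and 0.945 to 1.25 in the obese rats.

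**Figure D3:**
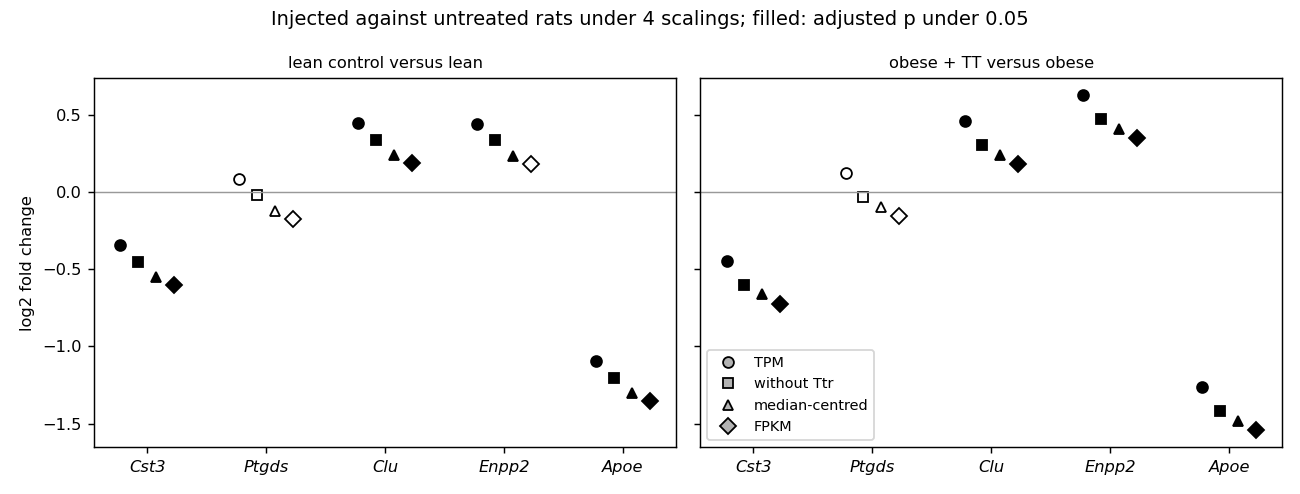
Log2 fold change (y axis) of the 5 members in lean control against lean rats (left) and obese + TT against obese rats (right), with TPM, TPM rescaled without Ttr, TPM centred on the median gene, and FPKM. Filled symbols have an adjusted p under 0.05. Cst3 and Apoe are below 0 and Clu and Enpp2 above 0 under all 4 scalings, whereas Ptgds is at 0.08 and 0.12 with TPM and below 0 with the other scalings.

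The ratio of 2 transcripts within a library is free of the scaling, and is given here as values with no test. There were 9.13 to 10.5 Cst3 transcripts for each Clu transcript in the lean rats and 7.2 to 10.1 in the obese rats, against 5.18 to 6.24 in the lean control and 4.56 to 4.97 in obese + TT rats. The injected groups do not overlap each other or the untreated rats in this ratio, and the lowest is that of the obese + TT rats.
The ratio of Cst3 to Enpp2 was 9.68 to 12 in lean, 8.71 to 11.6 in obese, 5.62 to 7.38 in lean control and 4.45 to 5.22 in obese + TT rats. The ratio of Cst3 to Ptgds overlapped between obese (5.43 to 8.16) and lean rats (6.48 to 7.57), with a log2 difference of -0.04. It also overlapped between obese + TT (4.35 to 4.87) and lean control rats (4.61 to 5.76), with a log2 difference of -0.18. The ratio of Clu to Enpp2 was nearly the same in lean (1.04 to 1.27), obese (1.07 to 1.24) and lean control rats (1.09 to 1.19), and 0.96 to 1.11 in obese + TT rats. Ratios were formed for all 10 pairs of members, and those without overlap are named after their values were seen. The share of such ratios over all genes was not determined. Between obese (0.0393 to 0.0576) and lean rats (0.0325 to 0.0392), only the ratio of Apoe to Ptgds did not overlap, by a narrow gap. That ratio overlapped between obese + TT (0.0118 to 0.0217) and lean control rats (0.0142 to 0.0184). Besides the ratios of Cst3 to Clu and to Enpp2, the ratio of Ptgds to Enpp2 did not overlap between obese + TT (0.995 to 1.13) and lean control rats (1.15 to 1.38). The ratio of Ptgds to Enpp2 overlapped between obese (1.32 to 1.79) and lean rats (1.4 to 1.79).
Cst3 was above Ptgds, Ptgds above Clu and Clu above Enpp2 in all 16 lean, obese and lean control rats. Among the 4 obese + TT rats Ptgds was above Clu in 3 and Clu above Enpp2 in 2, and their ranges (5854 to 6725, 6013 to 6463 and 5455 to 6359 TPM) overlapped. In lean and in obese rats the ranges of Clu and Enpp2 overlapped as well, though the order held in each rat. Apoe was the lowest in all 20 rats.

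**Figure D4:**
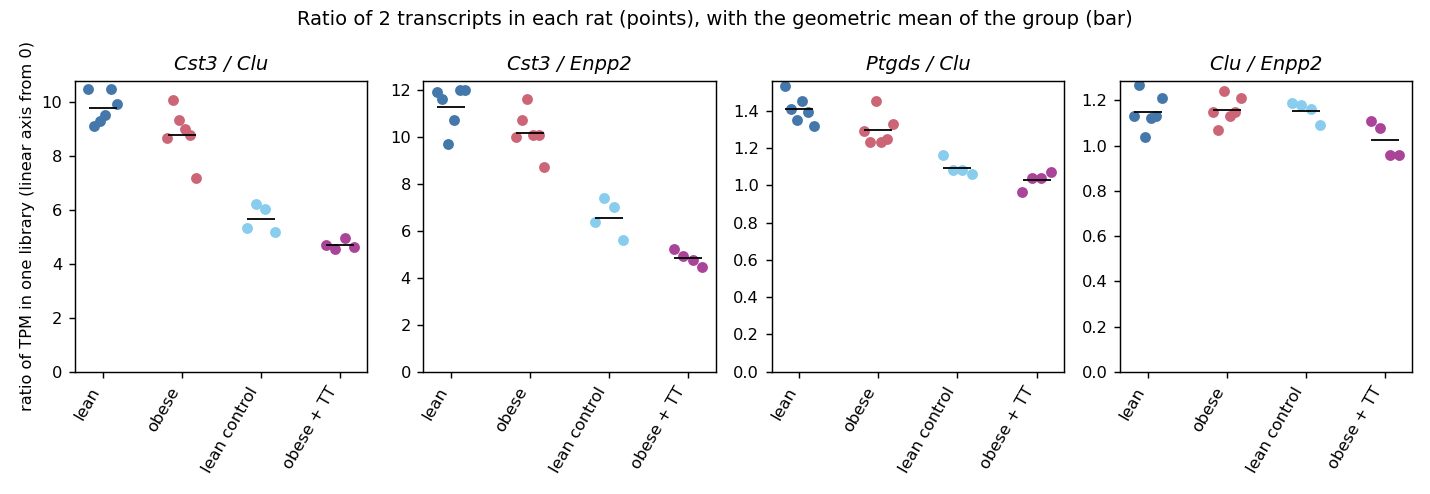
Ratio of the TPM of 2 members in each library (points, linear axes from 0) by group, with the geometric mean of the group as a bar. The ratios of Cst3 to Clu and of Cst3 to Enpp2 are lower in all injected than in all untreated rats and lowest in obese + TT rats, and the ratio of Clu to Enpp2 lies between 0.96 and 1.27 in all rats.

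Rats of one group also differed from each other, and the members were compared in how they did so, over 20 rats after the mean of the group was removed. Of the 10 pairs, Clu and Ptgds were the pair that varied together beyond the permutation threshold, with Pearson's r = 0.77 (permutation p = 0.00219, adjusted p = 0.0219 over 10 pairs) and Spearman's rho = 0.70 (permutation p = 0.00422, adjusted p = 0.0422). Without rats 8 and 12, which were farthest from the median in Clu, r was 0.61, and with each library centred on its median gene it was 0.72. Obese rat 8 had the lowest Clu (4037 TPM) and the lowest Ptgds (4983 TPM) of all rats. Clu and Enpp2 had r = 0.53 (adjusted p = 0.0637) and 0.10 after centring. None of the 4 pairs with Cst3 passed, with r between -0.26 and -0.08 and adjusted p-values of 0.552 to 0.78.

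**Figure D5:**
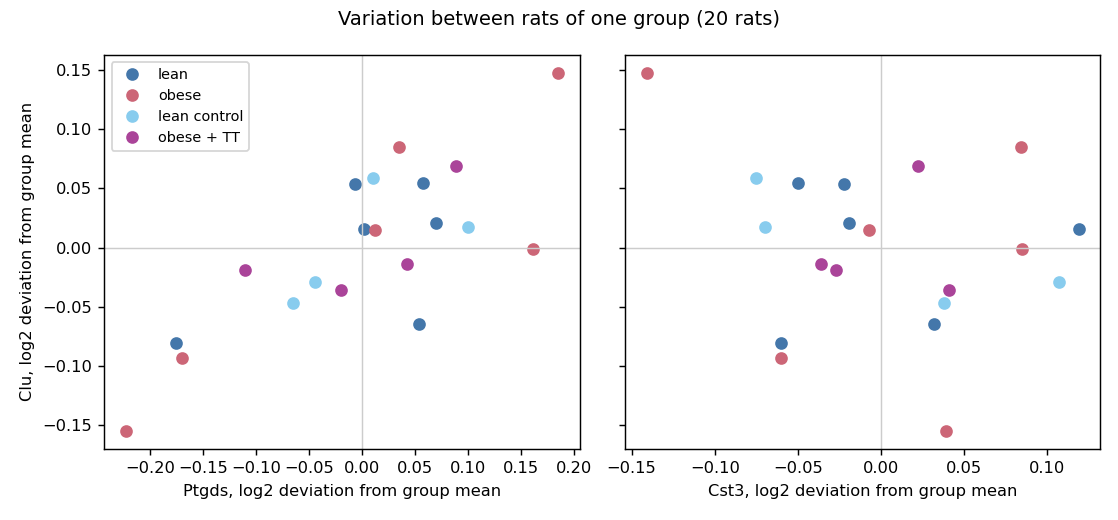
Log2 deviation of each rat from the mean of its group for Clu (y axis) against Ptgds (left) and Cst3 (right), with rats coloured by group. Clu and Ptgds rise together (r = 0.77 over 20 rats), and no such trend is seen for Clu and Cst3 (r = -0.26, adjusted p = 0.552).

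The genes most like each member in this variation were sought among 2381 genes that had a symbol and averaged 10 TPM or more, over the same 20 rats, and are given as a description. For Clu they were Hmces (r = 0.90) and Tecr (0.88). For Cst3 they were Mrpl57 (r = 0.84), a protein of the mitochondrial ribosome, Cisd1 (0.84), a protein of the outer mitochondrial membrane, and Snrpd3 (0.82), a core protein of the spliceosome. For Enpp2 they were Atp6ap1 (r = 0.87), an accessory subunit of the vacuolar proton pump, Dhx15 (0.87), an RNA helicase, and Erp44 (0.86), which retains proteins in the early secretory pathway. For Ptgds they were Clec18a (r = 0.83), Clu (0.77) and Pltp (0.77), and for Apoe Arhgdia (r = 0.83), Erap1 (0.80) and Cox5a (0.77).

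The enzymes and partners of the members were followed in lists chosen by function. None of their genes passed in obese against lean or in obese + TT against lean control rats. Of 16 cathepsins, legumain and other cystatins, among them Ctsa and Ctsd, which are not cysteine proteases, 10 had an identifier and were tested. In obese + TT against obese rats 6 were higher and 3 lower (median log2 fold change 0.29 against 0.25 for all genes), and in lean control against lean rats 4 were higher and 4 lower (median 0.20 against 0.24). With FPKM the balance turned, with 3 higher and 4 lower (median 0.01) in the former and 2 higher and 4 lower (median -0.06) in the latter. Ctsb (cathepsin B) rose from 326 ± 18.8 to 471 ± 18.6 TPM in the lean and from 331 ± 20.7 to 480 ± 7.69 TPM in the obese rats (adjusted p = 8.34e-06 and 1.12e-05). Ctsa (cathepsin A, a serine protease) rose by 0.53 and 0.61 on the log2 scale, Ctsc by 0.36 and 0.37 and Lgmn (legumain) by 0.39 and 0.44. With FPKM, Ctsb and Ctsa were still higher in both, Lgmn in the obese rats alone, and Ctsc in neither. Ctsd, an aspartic protease, had the highest level of the list (1175 TPM over the 20 libraries) and passed in the obese rats alone, with 0.31 (adjusted p = 0.000805), and not with FPKM.
Cstb, the cytosolic cystatin B, fell with Cst3, by 0.32 in the lean and by 0.36 in the obese rats (adjusted p = 0.00724 and 0.00394), and so did the secreted cystatin Cst6, by 0.30 and by 0.39 (adjusted p = 0.0157 and 0.00296), which is named here after its values were seen. Both passed with FPKM too. Ctsh fell by 0.27 and by 0.24. Ctsl fell by 0.17 in the lean rats and was at -0.07 in the obese rats, where it did not pass with TPM (adjusted p = 0.399) and did with FPKM (-0.35, adjusted p = 0.00068).

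Around Apoe, 6 of 27 lipoprotein receptors, lipid transfer proteins, other apolipoproteins and their regulators had an identifier. In the injected lean rats 3 were higher and none lower, and in the injected obese rats 4 and none (median 0.30 and 0.57 against 0.24 and 0.25 for all genes). With FPKM 3 were higher and 1 lower in both. The receptor gene Lrp1 rose while Apoe fell, from 28.4 ± 3.35 to 92.1 ± 11.8 TPM in lean and from 31.4 ± 9.27 to 98 ± 9.53 TPM in obese rats (adjusted p = 1.20e-07 and 1.66e-05). The receptor gene Lrp8 rose by 0.54 and 0.93 on the log2 scale and Pltp, which transfers phospholipids between lipoproteins, by 0.60 and 0.65, and these 3 also passed with FPKM in both. Lpl passed in the obese rats (0.48, adjusted p = 0.0168) and not with FPKM. Srebf1, a regulator of lipid synthesis, was at 0.02 and 0.22 and did not pass, and Nr1h2, a sterol-sensing receptor, was at -0.09 in both and was lower with FPKM (-0.35 and -0.37).

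The neighbours of Ptgds and Enpp2 were hardly covered. Of 21 prostaglandin genes 1 had an identifier, Ptges3, a cytosolic prostaglandin E synthase, which did not pass in any of the 4 comparisons with TPM (adjusted p = 0.0813 to 0.999) and with FPKM was lower in obese + TT than in obese rats (-0.17, adjusted p = 0.0234). Of 16 genes listed around lysophosphatidic acid 1 had one, Enpp5, listed as a member of the autotaxin family and not as a maker of this lipid. Enpp5 rose by 0.35 in the lean and 0.53 in the obese rats (adjusted p = 0.0018 and 1.35e-05), and with FPKM passed in the obese rats alone. It gives no information on lysophosphatidic acid itself.

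Other secreted proteins of the plexus moved in different directions. Of 36 listed, 20 had an identifier, and 12 were higher and 3 lower in lean control against lean rats and 10 higher and 5 lower in obese + TT against obese rats (median 0.35 and 0.33). With FPKM these were 9 and 5, and 6 and 7, so that in the obese rats more were lower than higher. Tf (transferrin) rose by 0.84 and 0.62 on the log2 scale, Psap (prosaposin) by 0.49 in both, Igf2 by 0.48 and 0.53, Kl (klotho) by 1.12 and 1.16 and Timp2 by 0.30 and 0.41, and all but Timp2 also passed with FPKM. B2m fell by 0.24 and by 0.38 (adjusted p = 0.0114 and 9.20e-05) and was lower with FPKM as well. Igfbp2 was at -0.14 and -0.16 and did not pass, though it was lower with FPKM (-0.40 and -0.43).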

How the data were processed

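The authors mapped paired-end reads of 150 bases (NEBNext Ultra library, NovaSeq) with STAR 2.7.9a to Rnor_6.0 (Ensembl 104) and deposited, per rat, TPM and FPKM of 32883 genes. Per the labels, RSEM 1.3.3 and DESeq2 3.16 are named too, without their roles. TPM as deposited summed to 1000000, and FPKM as deposited were the TPM times 1 factor per library. Whole reads could not be recovered, since ratios of low FPKM between 190 pairs of libraries showed no steps, so depth is unknown. No libraries of a group were duplicates (at most 0.463% of values identical).

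Genes averaging 0.1 TPM or more were tested with limma 3.58.1 (R 4.3.3) on log2(TPM + 0.1), eBayes with a trend, Benjamini-Hochberg over all genes, called at adjusted p under 0.05. The fold changes understate those of low genes. Exact two-sided permutation tests were run for single members, and 100000 permutations within groups for correlations. Scripts were tested on simulated data. The replicates are separate rats. Symbols came from the gene lists published with the study and covered 2616 identifiers, and a gene not covered was not analysed here. The authors' own fold changes were not used.

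The members and lists were chosen with earlier results of these data known. Named are the members, at most 8 genes of a list by mean TPM (at least 10 TPM or called), the 3 genes most like each member, and Ttr. A gene that this rule names for Clu is not reported here. Alternatives were the pseudocount, the filter, the variance model, the scaling, all 20 libraries in one fit and leaving out each rat. The mean of both comparisons and the ratios were added after the data were seen.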

Additional observations from a re-analysis of the deposited data

Results flagged for a closer look

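In groups of 4 to 6 rats, a rat was marked when its gap to the nearest other rat was a large part of the whole range of the group (Dixon's criterion at 95%). Of 20 combinations of member and group 2 were marked, where chance gives about 1. Apoe stood at 381 TPM in obese rat 12, against 215 to 264 TPM in the other obese rats. Ptgds stood at 5604 TPM in lean rat 6, against 6305 to 6648 TPM in the other lean rats, and that rat also had the highest Ttr of the lean group, 390135 TPM.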

How the results depend on the processing

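No paired analysis was possible because no replicate number is shared between groups. Over 670 alternative values of the members, 610 kept direction and side of the threshold, 7 lost the call and 53 changed sign, and of the 8 called member results, with 160 alternatives, none changed sign. The calls lost were those of Cst3 without the filter on low values (-0.344 in lean control against lean, adjusted p = 0.366, and -0.446 in obese + TT against obese, adjusted p = 0.0685), of Enpp2 with FPKM in lean control against lean (0.18, adjusted p = 0.0501), and of Cst3 in lean control against lean without lean rat 3, 4 or 5 or lean control rat 16 (range over all rats left out -0.38 to -0.319). The cause was not tested.

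The sign changes concerned values near 0. In obese against lean rats Clu was 0.001 (FPKM) and 0.011 (without Ttr), from -0.034 to 0.027 with a rat left out, and Enpp2 was 0.004 (without Ttr) and from -0.041 to 0.029. In obese + TT against lean control rats Clu was -0.005 (FPKM), -0.025 (without Ttr), -0.007 (also without mitochondrial genes) and -0.007 (centred), from -0.016 to 0.027 with a rat left out. Apoe there was -0.018, -4.8e-04 and -0.001 under the last 3 of these scalings, and from -0.098 to 0.174. Ptgds was -0.175, -0.023, -0.027 and -0.123 in lean control against lean rats and -0.157, -0.036, -0.003 and -0.096 in obese + TT against obese rats, in the same order of the 4 scalings. In the difference of both comparisons Clu was -0.006, -0.036 and -0.001 under the first 3 (from -0.02 to 0.041 with a rat left out) and Ptgds -0.012 without Ttr (from -0.009 to 0.072). In their mean Clu was -0.002, -0.007, -0.007 and -0.009 (from -0.013 to 0.017).

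Genes called in obese against lean rats were 1 with FPKM, 1 when centred, 3 in one fit of all 20 libraries and 0 to 1 with a rat left out. In obese + TT against lean control rats they were 6 in the fit of all 20 libraries and 0 to 25 with a rat left out, 25 being without lean control rat 13. For the difference they were 1 at 1 TPM or more, 1 with the robust option, 2 with FPKM, 10 without Ttr, 5 also without mitochondrial genes, 2 when centred and 0 to 14 with a rat left out. For the mean they were 23, 24 and 24 under the last 3 scalings and 5 to 66 with a rat left out, both highest without lean control rat 13. Without read depth, no limit of detection can be given.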
